A study of Mus musculus with 48 samples.

Results

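The genes described here are the 4 members of the mouse Ifitm family that were chosen by name, Ifitm1, Ifitm2, Ifitm3 and Ifitm10, out of 7 Ifitm genes in the single-cell gene list. All 4 were found in both bulk RNA tables, which hold 52636 rows for the thymic cells and 35661 rows for the donor T cells, and all 4 passed the low-count filter of both. The names were picked with earlier results of these files in view. Their RNA levels are therefore given as a description, with fitted changes and standard errors but without p-values. Ifitm5, Ifitm6 and Ifitm7, the remaining family genes, are given for comparison.

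IFITM proteins are small membrane proteins induced by interferons. IFITM1, IFITM2 and IFITM3 sit in plasma and endosomal membranes and hinder the fusion of enveloped viruses with the cell, and interferons reach their genes through JAK kinases, STAT factors and interferon regulatory factors. In T cells the family is known both as part of the interferon response and as a set of genes whose transcripts change with activation and memory. Ifitm10 is a family member that lies apart from that cluster, and its role is poorly defined.

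The study profiled invariant natural killer T (iNKT) cells, innate-like T cells that read lipid antigens on CD1d, and tested how their sublineages act on donor T cells in graft-versus-host disease (GVHD). Sorted iNKT1, iNKT2 and iNKT17 cells from thymi of FVB mice (strain label FVB/N) gave 2 RNA libraries and 2 ATAC-seq (open chromatin) libraries per sublineage. Total thymic iNKT cells of 8-week-old FVB/N mice gave 2 single-cell libraries, each from 1 thymus (A and B). CD4 and CD8 conventional T cells of FVB/N donors came from spleen and peripheral lymph nodes, either before transplant (day 0) or at day 7 after transfer into fully mismatched Balb/C hosts. The day 7 donor cells had no iNKT treatment or treatment with iNKT1, iNKT2 or iNKT17 cells, with 3 libraries in each of the 10 donor groups. All groups share the FVB/N background, and no genetic change is labelled. The labels do not say whether libraries of a group came from separate animals, so every p-value below measures only the spread between libraries, which may be technical. Levels are library-size-scaled counts (CPM, the usual abbreviation), adjusted by edgeR's TMM factors. The sample titles name 2 experiments, with 2 libraries of each donor group in the first and 1 in the second, but the table columns do not say which library is which, so no value within an experiment can be given. The 2 RNA tables were scaled separately and came from different RNA and library kits, so no level is compared between them.

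Depth was 26811373 to 33688697 counts per thymic RNA library, 25323879 to 37055182 per donor T cell library and 13299586 to 42964216 per ATAC library. Pearson's r of log2 CPM between libraries of a group was 0.633 to 0.738 across genes in the thymic RNA table, against 0.953 to 0.986 in the donor table, and the biological coefficient of variation was 1.30 in the thymic table, 0.288 in the CD4 fit and 0.196 in the CD8 fit. The iNKT1 label was checked against Tbx21, the gene of its defining transcription factor T-bet, which averaged 306 ± 1.69 CPM (SD, n = 2) in iNKT1 against 10.0 ± 13.7 in iNKT2 and 0.165 ± 0.0963 in iNKT17.

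On the GRCm38.p6 assembly (mm10), Ifitm2 spans chr7:140954837-140959686, Ifitm1 chr7:140967429-140969827 and Ifitm3 chr7:141009590-141010744. Ifitm5 (chr7:140948958-140950243) and Ifitm6 (chr7:141015812-141016892) lie in the same cluster. Ifitm10 spans chr7:142325835-142373779, and Ifitm7 lies on another chromosome at chr16:13981702-13986867. Ifitm1 is on the plus strand and the other 3 members are on the minus strand.

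The sequences before the start sites of the 4 members are shown because 3 of them moved together in the donor T cells while Ifitm10 did not, and because open chromatin changed over the start of Ifitm10. Each is the 250 bases upstream of a RefSeq start on GRCm38.p6, written in the direction of transcription. For Ifitm1 and Ifitm2 the start used lies inside the gene span, at chr7:140968076 and chr7:140955961. In the direction of transcription their spans begin at chr7:140967429 and chr7:140959686, and the sequence before those ends was not searched. The motif searched, on both strands, was the core of the interferon-stimulated response element (GAAA, any 2 bases, then GAAA), and matches are in capitals. The 250 bases are at chr7:140967826-140968075 for Ifitm1 (plus strand), chr7:140955962-140956211 for Ifitm2 (minus), chr7:141010745-141010994 for Ifitm3 (minus) and chr7:142372260-142372509 for the first of 3 RefSeq start sites of Ifitm10 (minus).
Ifitm1: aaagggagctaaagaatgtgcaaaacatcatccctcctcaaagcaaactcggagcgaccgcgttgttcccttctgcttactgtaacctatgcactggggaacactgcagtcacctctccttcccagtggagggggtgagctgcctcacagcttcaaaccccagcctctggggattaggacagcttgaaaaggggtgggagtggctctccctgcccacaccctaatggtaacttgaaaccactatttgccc
Ifitm2: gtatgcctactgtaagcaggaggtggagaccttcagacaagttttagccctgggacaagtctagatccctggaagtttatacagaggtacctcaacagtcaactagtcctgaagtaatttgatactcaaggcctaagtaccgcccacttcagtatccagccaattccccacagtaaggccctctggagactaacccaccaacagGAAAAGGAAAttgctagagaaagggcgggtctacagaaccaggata
Ifitm3: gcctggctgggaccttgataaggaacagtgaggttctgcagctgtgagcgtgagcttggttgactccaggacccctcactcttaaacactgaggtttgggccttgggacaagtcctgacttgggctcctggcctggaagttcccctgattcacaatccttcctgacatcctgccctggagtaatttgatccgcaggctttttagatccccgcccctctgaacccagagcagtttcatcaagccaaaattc
Ifitm10: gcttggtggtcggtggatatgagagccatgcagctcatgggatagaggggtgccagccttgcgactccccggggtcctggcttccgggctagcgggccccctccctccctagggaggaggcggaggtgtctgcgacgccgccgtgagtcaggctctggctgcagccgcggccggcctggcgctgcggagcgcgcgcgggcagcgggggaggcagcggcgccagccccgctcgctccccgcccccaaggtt

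The window searched also took in the first 50 bases after the start, and the motif stood there in Ifitm3. Its first 30 bases, at chr7:141010715-141010744 on the minus strand, hold 2 copies of the motif, in capitals, with the core of the gamma-activated site, TTCNNNGAA, between them and overlapping the second copy.
Ifitm3 start: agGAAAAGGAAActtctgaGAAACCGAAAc
Over the 300-base windows of all start sites, 3.44% (1131 of 32851) held this response element core on either strand and 8.30% (2726) held TTCNNNGAA. Ifitm2 had 1 copy of it and Ifitm3 had 2. In the windows of Ifitm1 and of the 3 Ifitm10 starts these letters were not found for either motif, which says only that they are not in these windows. The Ifitm10 window shown was also the richest in G and C, at 73.7%, against 51.3% for Ifitm1, 49.7% for Ifitm2 and 53.0% for Ifitm3.

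In the thymic sublineages, transcripts of Ifitm1, Ifitm2 and Ifitm3 were counted almost only in iNKT1 cells. Ifitm1 had 2643 and 1788 counts in the iNKT1 libraries, 1 and 2 in iNKT2, and 1 and 0 in iNKT17. Ifitm2 had 2025 and 4246 counts in iNKT1, 3 and 1 in iNKT2, and 0 and 2 in iNKT17. Ifitm3 had 2187 and 1513 counts in iNKT1, 1 and 1 in iNKT2, and 0 and 2 in iNKT17. For each of these antiviral genes both iNKT1 libraries lay far above all 4 others, and the iNKT2 and iNKT17 libraries were at or under 3 counts.

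Ifitm10 followed a graded order instead. It had 6253 and 5724 counts in iNKT1, 591 and 318 in iNKT2, and 0 and 5 in iNKT17, and the 3 sublineages did not overlap. In CPM the iNKT1 means were 70.0 ± 23.3 (SD, n = 2) for Ifitm1, 96.7 ± 43.0 for Ifitm2, 58.4 ± 18.6 for Ifitm3 and 188 ± 23.5 for Ifitm10. Ifitm10 averaged 15.8 ± 6.0 CPM in iNKT2 and 0.0969 ± 0.137 in iNKT17. For Ifitm2 and Ifitm3 the iNKT2 and iNKT17 levels overlapped, so their order below iNKT1 is not set by these libraries.

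**Figure D1:**
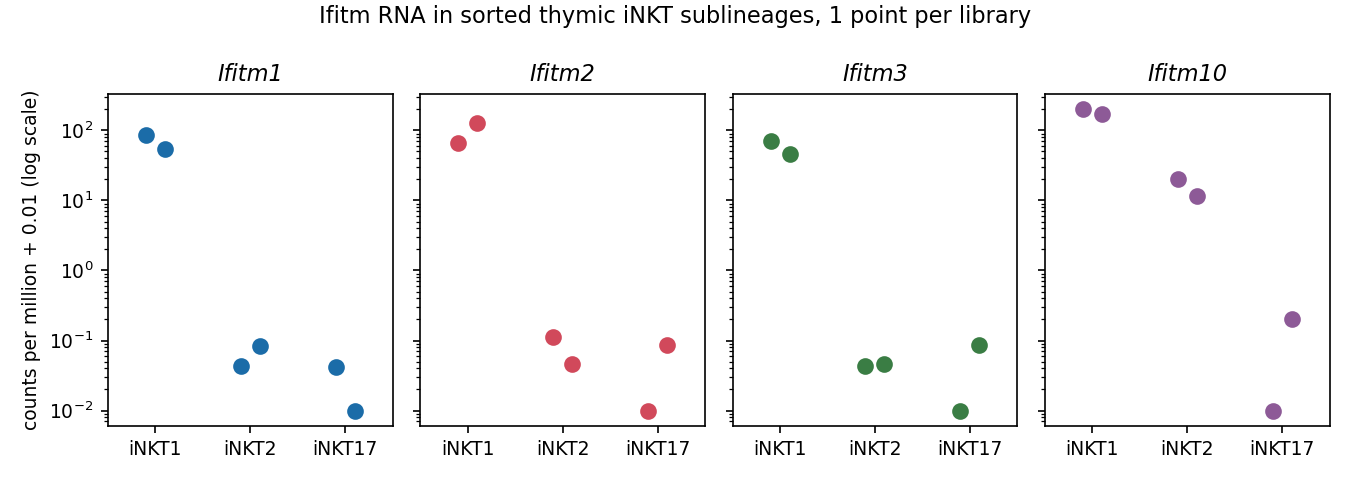
Level of each Ifitm gene in thymic iNKT sublineages, as CPM on a log axis after adding a small constant so that a level of 0 can be drawn, with 1 point per library. Ifitm1, Ifitm2 and Ifitm3 are high only in the iNKT1 libraries, and Ifitm10 steps down from iNKT1 (171 to 205 CPM) through iNKT2 (11.5 to 20.0 CPM) to iNKT17 (0 to 0.194 CPM).

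The summed counts put the iNKT1 level over the iNKT2 level at 1320 times for Ifitm1 (95% exact interval 451 to 6403), 1401 times for Ifitm2 (547 to 5144) and 1653 times for Ifitm3 (457 to 13656), after scaling by library size. Over iNKT17 the ratios were 3941 for Ifitm1 (707 to 155690), 2789 for Ifitm2 (772 to 23032) and 1645 for Ifitm3 (455 to 13591), on 1 or 2 counts each in iNKT17. For Ifitm10 the ratio was 11.8 (11.0 to 12.6) over iNKT2 and 2130 (913 to 6562) over iNKT17. These intervals cover counting error only and rest on 2 libraries a group, and reads without molecular identifiers are not independent molecules. The plot of levels by sublineage shows the same split between the cluster genes and Ifitm10.

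The fitted log2 changes from iNKT1 to iNKT2 were -10.26 ± 2.65 (SE) for Ifitm1, -10.36 ± 2.12 for Ifitm2, -10.54 ± 3.2 for Ifitm3 and -3.58 ± 0.97 for Ifitm10. From iNKT1 to iNKT17 they were -11.70 ± 2.81, -11.19 ± 2.2, -10.44 ± 3.19 and -10.92 ± 1.37 in the same order. Those of genes near 0 depend on the prior count and are no bound. At an adjusted p of 0.05 (edgeR quasi-likelihood test, Benjamini-Hochberg), 0 of 4 members were called between iNKT2 and iNKT1, beside 1.29% of all 12372 genes tested, although 4 had an unadjusted p under 0.05 and DESeq2 called 4. Between iNKT17 and iNKT1, 2 members were called (Ifitm2 and Ifitm10), beside 2.00% of genes, and DESeq2 called 4. Between iNKT17 and iNKT2 Ifitm10 alone was called (-7.35 ± 1.21), beside 0.711% of genes. The libraries of iNKT2 and iNKT1 did not overlap for 4 of 4 members, and they did not overlap for 44.1% of all genes. The same held for 4 of 4 members and 40.5% of genes between iNKT17 and iNKT1, and for 39.1% of genes between iNKT17 and iNKT2, where 2 members did not overlap. Since the members were chosen with such results known, nothing is read from these counts. On simulated counts with the spread of this table, the same test recovered 24 of 66 genes changed by 8 log2 units between iNKT2 and iNKT1.

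Ifitm5 and Ifitm6 had 0 counts in all 6 thymic libraries, and Ifitm7 had 9 counts in 1 iNKT2 library and 0 elsewhere. In a bulk sample, fewer cells that express a gene and less RNA per cell cannot be told apart. The summed level of 5 natural killer cell markers was 653 to 808 CPM in iNKT1, 0.779 to 14.9 in iNKT2 and 461 to 505 in iNKT17, with 2 and 3 of the 5 at 0 in the latter groups. The summed level of 9 B and plasma cell markers was 133 to 168 CPM in iNKT1, 7.35 to 15.2 in iNKT2 and 31.9 to 137 in iNKT17, with 7 of 9 at 0 in each. Klrb1c and Gzma of the natural killer sum also stand among the iNKT1 markers used below for the single cells. That sum therefore does not mark natural killer cells alone, and Eomes, Klra8 and Ncr1 were at 0 in iNKT17. Both sums were higher in iNKT1, where the Ifitm genes were high, than in iNKT2, and their part in the result was not tested. Myeloid markers, over 15 genes, were lower in iNKT1 (10.2 to 14.2 CPM) than in iNKT2 (17 to 45.0), and overlapped with iNKT17 (11.7 to 55.7). Stromal, endothelial and epithelial markers were at 5.53 to 19.2, 129 to 152 and 64.6 to 91.2 CPM in iNKT1, iNKT2 and iNKT17, with 7, 8 and 7 of 10 at 0. Immature thymocyte markers (27.1 to 96.4, 81.1 to 114 and 52.6 to 135 CPM) overlapped. So did erythroid and platelet markers (2.62 to 7.13, 0.0677 to 4.06 and 0 to 18.1 CPM).

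The interferon-stimulated antiviral genes gave no edgeR call between the sublineages. Of these 25 genes, all tested, 0 were called between iNKT2 and iNKT1 by edgeR, with 2 at an unadjusted p under 0.05 and 1 called by DESeq2, and their median log2 change was 0.59 beside 0.09 for all genes. Between iNKT17 and iNKT1 edgeR called 0 of the 25, with 4 at an unadjusted p under 0.05 and 5 called lower by DESeq2, at a median of -0.94 beside -0.03. Their summed level was 1294 to 1346 CPM in iNKT1 and 1906 to 2032 CPM in iNKT2, and 810 to 1016 CPM in iNKT17, so iNKT2 lay above iNKT1 and iNKT17 below it, with Ifit3b, Oasl1 and Rsad2 at 0 in all iNKT17 libraries. Of 14 GTPases induced by interferon-gamma, edgeR called 0 between iNKT2 and iNKT1, where 2 had an unadjusted p under 0.05 and DESeq2 called 1. It also called 0 between iNKT17 and iNKT1, where 3 were lower at an unadjusted p under 0.05 and DESeq2 called 3 lower, at a median of -1.07. The summed GTPase level was 1052 to 1155 CPM in iNKT1, 995 to 1027 in iNKT2 and 637 to 742 in iNKT17, where Gbp6, Gbp8 and Iigp1 were at 0 in all libraries.

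The list genes named here and below had the smallest p of lists chosen with earlier results known. Their p-values are therefore a description. Among 8 interferon ligands and receptors, of which 5 were tested, 2 were lower in iNKT2 than in iNKT1, beside 0.752% of all genes. Ifngr1, the ligand-binding chain of the interferon-gamma receptor, fell by 4.08 ± 0.32 log2 units (edgeR adjusted p = 0.000265). Ifng, the gene of interferon-gamma itself, fell by 4.90 ± 0.85 (adjusted p = 0.0396), and from iNKT1 to iNKT17 it fell by 11.03 ± 1.14 (adjusted p = 0.00211). Of the genes next to the cluster on chromosome 7, 8 of 13 were tested, and B4galnt4, a glycosyltransferase gene, was lower in iNKT2 than in iNKT1 by -3.25 ± 0.38 log2 units (adjusted p = 0.00283). Of 9 genes around Ifitm10, 5 were tested, and Ctsd, the gene of the lysosomal protease cathepsin D, was lower in iNKT17 than in iNKT1 by -1.34 ± 0.25 (adjusted p = 0.0266).

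Open chromatin around the members was measured in the same sublineages by ATAC-seq. These counts were not the measure used to choose the genes, but the names were picked with earlier results of these files in view. The region calls are therefore no independent support for the RNA differences. Each deposited region was given to the gene with the nearest RefSeq start site, which put 12 regions at the 4 members and 3 at Ifitm5 and Ifitm6. Region numbers count upward along the chromosome for each gene. Of the 12 regions, 7 were lower in iNKT2 than in iNKT1 and 0 were higher by the main test (edgeR quasi-likelihood test, Benjamini-Hochberg), beside 16.3% of all regions lower and 22.3% higher. The median change of the 12 was -1.08 log2 units against 0.06 for all regions. In iNKT17, 8 of the 12 were lower than in iNKT1 and 0 were higher, beside 13.6% of all regions lower and 23.5% higher, with a median of -1.71 against 0.07. Between iNKT17 and iNKT2, 3 were lower in iNKT17 and 0 higher, beside 3.24% lower and 5.11% higher. The regions of Ifitm5 and Ifitm6 added 1 lower region in iNKT2 (Ifitm5 region 2, -1.73 ± 0.25, adjusted p = 0.00103) and 2 in iNKT17 against iNKT1, the same Ifitm5 region (-1.86 ± 0.25, adjusted p = 0.000521) and the Ifitm6 region (-2.15 ± 0.54, adjusted p = 0.0123). That Ifitm5 region lies inside the span of Pgghg, and the Ifitm6 region is centred 20.1 kb upstream of the Ifitm6 start.

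The regions with the widest gap lay downstream of Ifitm1, 14.0 and 15.2 kb past its start site, outside any RefSeq gene span. Region 1 of Ifitm1 (chr7:140981754-140982412) had 27.1 and 29.1 CPM in the iNKT1 libraries, 3.58 and 2.68 in iNKT2, and 1.32 and 0.650 in iNKT17. The iNKT1 level was far above the others there. The fitted change was -3.16 ± 0.34 log2 units in iNKT2 against iNKT1 (adjusted p = 0.000345), -4.88 ± 0.38 in iNKT17 against iNKT1 (adjusted p = 6.82e-05) and -1.72 ± 0.36 in iNKT17 against iNKT2 (adjusted p = 0.0206). Region 2 of Ifitm1 (chr7:140982926-140983659) had 24.7 and 27.3 CPM in iNKT1, 3.79 and 2.84 in iNKT2, and 3.65 and 1.41 in iNKT17. It fell by 2.96 ± 0.42 in iNKT2 (adjusted p = 0.000949) and changed by -3.39 ± 0.42 in iNKT17 (adjusted p = 0.000379), and the iNKT2 and iNKT17 libraries overlapped. Being nearest to a gene does not show that a region acts on it.

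Ifitm2 had 4 regions, of which 3 lay inside its gene span. Region 3 (chr7:140956991-140957436), 1.25 kb upstream of the start site used, had 7.03 and 6.64 CPM in iNKT1, 3.74 and 2.36 in iNKT2, and 1.22 and 0.989 in iNKT17. It was lower in iNKT2 (-1.15 ± 0.35, adjusted p = 0.0278), lower again in iNKT17 against iNKT1 (-2.64 ± 0.37, adjusted p = 0.000655), and lower in iNKT17 than in iNKT2 (-1.49 ± 0.37, adjusted p = 0.0404). Region 2 (chr7:140955226-140955712), centred 0.492 kb past the start, had 9.35 and 9.54 CPM in iNKT1, 5.94 and 7.56 in iNKT2, and 4.76 and 1.92 in iNKT17. It was lower in iNKT17 than in iNKT1 (-1.52 ± 0.41, adjusted p = 0.0166), while its iNKT2 difference of -0.49 ± 0.40 did not pass (adjusted p = 0.355). Regions 1 and 4 of Ifitm2 were not called in any of the 3 comparisons, although with the replicate number as a block region 1 was called lower against iNKT1 both for iNKT2 (-2.15) and for iNKT17 (-1.73).

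The chromatin values of Ifitm3 did not show the order of its RNA. Its only region (chr7:141008889-141009435), 1.58 kb past the start and beyond the end of the gene span, had 8.54 and 4.84 CPM in iNKT1, 10.4 and 7.01 in iNKT2, and 11.4 and 8.05 in iNKT17. The 3 sublineages overlapped. The changes were 0.38 ± 0.35 (adjusted p = 0.414) for iNKT2 and 0.53 ± 0.35 (adjusted p = 0.267) for iNKT17 against iNKT1, and with the replicate block the latter was called higher in iNKT17 (0.56). None of the 15 regions overlapped the start-site windows of Ifitm1, Ifitm2 or Ifitm3 whose sequences are printed above. The letters there therefore have no accessibility value here. Those windows do not cover the upstream ends of the Ifitm1 and Ifitm2 spans, and Ifitm2 region 4 (chr7:140959242-140959492) lies near the latter end.

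For Ifitm10, region 4 (chr7:142371194-142372527) covered the start-site window printed above. It had 26.2 and 23.7 CPM in iNKT1, 13.8 and 10.8 in iNKT2, and 8.72 and 7.46 in iNKT17, the same order as the RNA. It fell by 1.02 ± 0.23 log2 units in iNKT2 (adjusted p = 0.00883) and changed by -1.63 ± 0.24 in iNKT17 (adjusted p = 0.000806), and the difference of -0.61 ± 0.24 between iNKT17 and iNKT2 did not pass (adjusted p = 0.168), but was called with the replicate block (-0.60). Region 3, 18.1 kb inside the gene (chr7:142353837-142354405), had 38.7 and 35.9 CPM in iNKT1, 17.0 and 17.3 in iNKT2, and 8.67 and 8.67 in iNKT17, and was lower in all 3 comparisons, including iNKT17 against iNKT2 (-0.98 ± 0.20, adjusted p = 0.0185). Region 5, 5.53 kb upstream and inside the span of Ctsd (chr7:142378907-142379642), had 18.3 and 21.7 CPM in iNKT1, 4.51 and 5.36 in iNKT2, and 4.0 and 2.40 in iNKT17, with changes of -2.02 ± 0.31 (adjusted p = 0.00131) and -2.66 ± 0.31 (adjusted p = 0.000288) against iNKT1. Region 1 was lower in both (-1.04 ± 0.26, adjusted p = 0.0134, and -1.19 ± 0.26, adjusted p = 0.00679), and region 2, at 3.69 to 5.31 CPM throughout, was called in none.

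**Figure D2:**
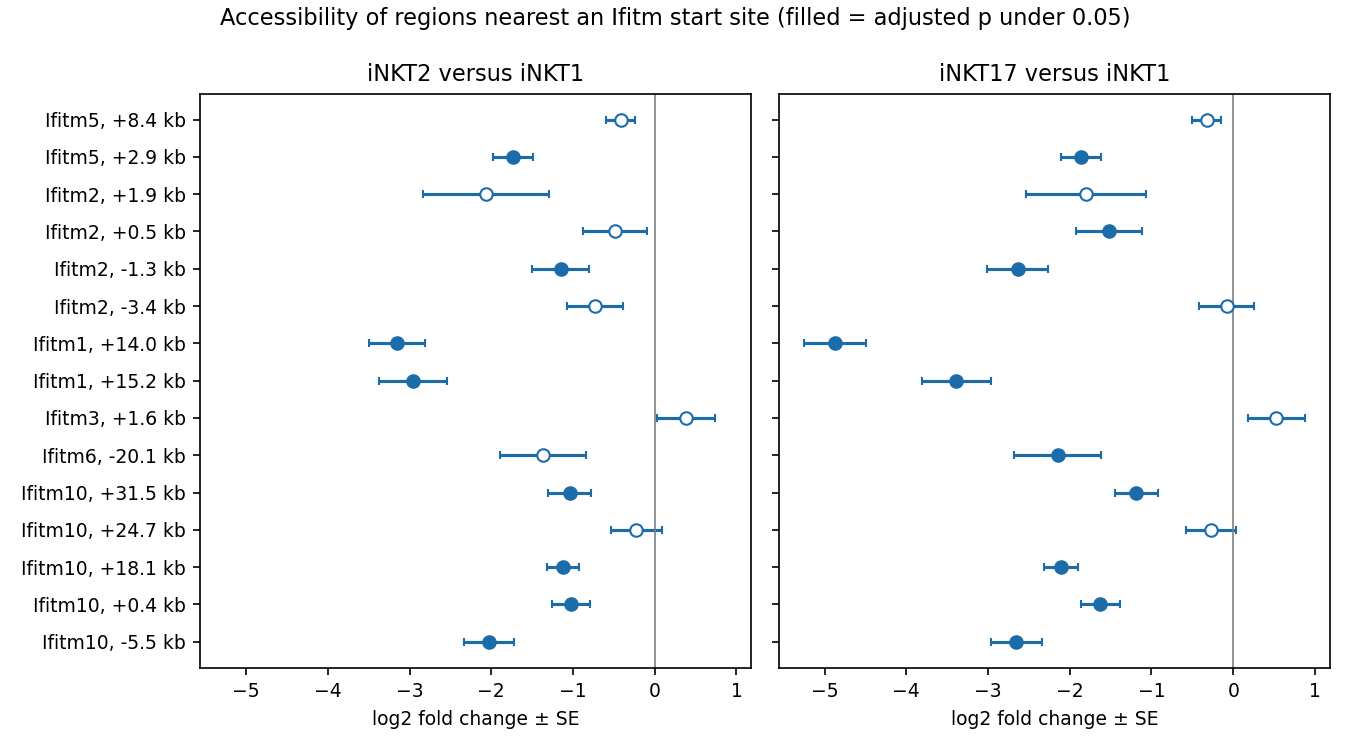
Log2 change in ATAC-seq counts (horizontal axis) for the 15 regions nearest to an Ifitm start site, with bars of 1 SE, for iNKT2 and for iNKT17 against iNKT1. Rows give the distance of each region from the start site, plus for downstream, and filled points passed the test; the 2 Ifitm1 regions lie farthest to the left, between -4.88 and -2.96, and the Ifitm3 region lies at 0.38 and 0.53.

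The single-cell libraries showed the same genes in the cells that resembled iNKT1. After requiring 1000 unique molecular identifiers (UMIs) and under 10% mitochondrial UMIs, 138 cells remained from thymus A (median 5310 UMIs) and 145 from thymus B (median 5815), with 0 barcodes shared and no doublet caller run. Clustering without any Ifitm gene gave 4 clusters. Cluster 1 (95 cells, 56 from A and 39 from B) had 7 iNKT1 markers among its 10 leading genes and is called iNKT1-like, and cluster 4 (46 cells) had 6 iNKT17 markers and is called iNKT17-like. Clusters 2 (79 cells) and 3 (63 cells) stay unnamed. The cluster 2 leaders include the interferon-induced genes Isg15, Gbp2 and Bst2.

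Cells with at least 1 UMI of Ifitm1 numbered 9 of 283 (3.18%), of Ifitm2 35 (12.4%), of Ifitm3 25 (8.83%) and of Ifitm10 65 (23.0%). In the iNKT1-like cluster these were 8 cells for Ifitm1 (8.42%, 95% exact interval 3.71 to 15.9%), 28 for Ifitm2 (29.5%, 20.6 to 39.7%), 20 for Ifitm3 (21.1%, 13.4 to 30.6%) and 45 for Ifitm10 (47.4%, 37.0 to 57.9%). In the iNKT17-like cluster the counts were 0, 1, 2 and 1 of 46 cells, and 0 of 46 allows a share of cells with a UMI of up to 6.52% (3 cells of the total, as for the other counts of 0). The iNKT1-like cells had fewer UMIs (median 3949) than the iNKT17-like cells (4985), so the higher shares were in the shallower cells. Cluster 2 had 1, 6, 1 and 13 of 79 cells with the 4 genes in turn, and cluster 3 had 0, 0, 2 and 6 of 63, where 0 cells allow a share with a UMI of up to 4.76%.

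Both thymi showed this. In the iNKT1-like cluster, Ifitm2 was found in 32.1% of cells from A and 25.6% from B, Ifitm3 in 21.4% and 20.5%, Ifitm10 in 55.4% and 35.9%, and Ifitm1 in 10.7% and 5.13%. With each cell thinned to 2000 UMIs, the iNKT1-like shares were 3.37% for Ifitm1, 20.2% for Ifitm2, 18.0% for Ifitm3 and 27.0% for Ifitm10, and in the iNKT17-like cluster they were 0, 0, 0 and 2.22%. Free RNA was measured in barcodes with under 100 UMIs. It held 0.832 (A) and 0.259 (B) Ifitm2 UMIs per 10000 against 2.22 in the iNKT1-like cells, 0.579 and 0.222 Ifitm3 UMIs against 1.5, 0.615 and 0.666 Ifitm10 UMIs against 1.47, and 0.362 and 0.111 Ifitm1 UMIs against 0.877. Clusters 2, 3 and 4 lay under the free RNA of both thymi for every member. Per 10000 UMIs they had 0.0370, 0 and 0 of Ifitm1 and 0.111, 0 and 0.0399 of Ifitm2. For Ifitm3 they had 0.0185, 0.0369 and 0.0798, and for Ifitm10 0.370, 0.111 and 0.0399. Whether free RNA gave the UMIs in those clusters was not tested. No test of clusters is given, because clusters come from the same cells. Of 35 cells with Ifitm2, 17 also had Ifitm3 (48.6% of the Ifitm2 cells and 68.0% of the Ifitm3 cells), and 8 of 9 cells with Ifitm1 also had Ifitm2. UMIs of Ifitm5, Ifitm6 and Ifitm7 were 0, which allows up to 1.06% of cells with a UMI and sets no limit on cells that express them, and the B cell and myeloid markers also had 0 UMIs in these cells.

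**Figure D3:**
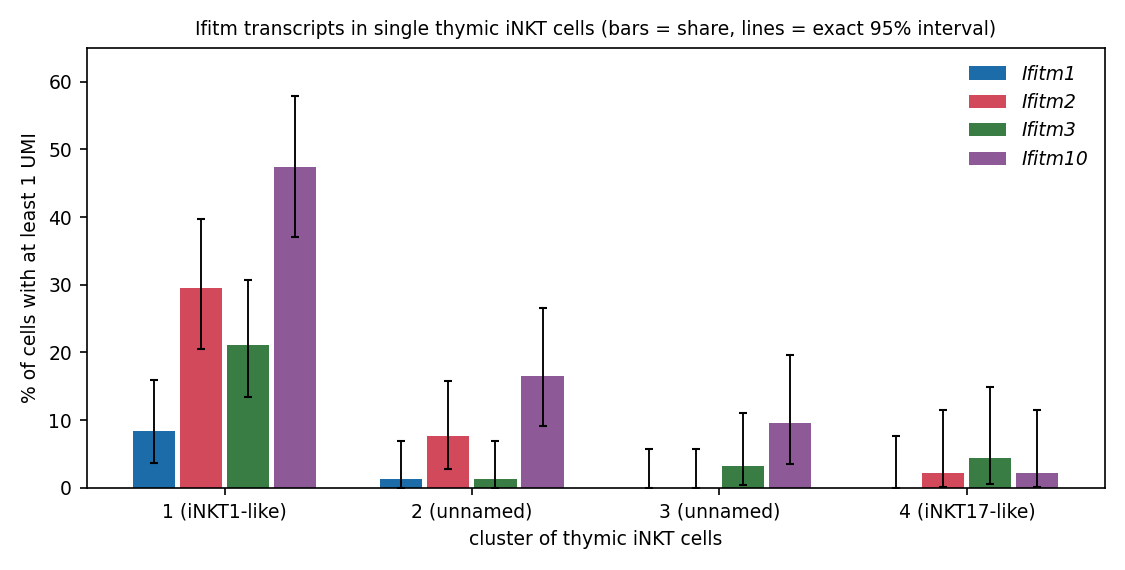
Percent of cells with at least 1 UMI of each Ifitm gene (vertical axis) in the 4 single-cell clusters, with both thymi together; lines are exact 95% binomial intervals, which cover counting error only. The iNKT1-like cluster has the highest share of every member, from 8.42% (Ifitm1) to 47.4% (Ifitm10).

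In donor T cells, Ifitm1, Ifitm2 and Ifitm3 were all higher at day 7 after transplant than at day 0, in CD4 and in CD8 cells, while Ifitm10 was not. Ifitm1 in CD4 cells was 1.08, 0.794 and 1.55 CPM at day 0 and 296, 285 and 302 CPM in untreated hosts at day 7. In CD8 cells it was 0.60, 0.604 and 0.40 CPM at day 0 and 162, 155 and 193 CPM at day 7. Ifitm1 thus went from near 0 to over 150 CPM in both cell types, with every day 7 library far above every day 0 library.

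Ifitm2 in CD4 cells was 8.56, 6.19 and 16.2 CPM at day 0 and 303, 231 and 431 CPM at day 7. In CD8 cells it was 8.69, 10.8 and 4.14 CPM at day 0 and 59.8, 51.3 and 91.2 CPM at day 7. The day 0 levels of the 2 cell types overlapped, and the day 7 levels did not. Ifitm3 in CD4 cells was 18.8, 14.9 and 24.3 CPM at day 0 and 120, 92.8 and 122 CPM at day 7. In CD8 cells it was 10.9, 12.9 and 4.48 CPM at day 0 and 37.4, 34.3 and 33.4 CPM at day 7. CD4 cells had the higher Ifitm3 level on both days, without overlap.

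Ifitm10 had the opposite order of cell types. It was 11.1, 9.31 and 27.3 CPM in CD4 cells at day 0 and 14.1, 17.3 and 27.3 CPM at day 7. In CD8 cells it was 58.6, 71.0 and 76.0 CPM at day 0 and 44.3, 33.7 and 64.1 CPM at day 7. In these day 0 and untreated day 7 groups all CD8 libraries were above all CD4 libraries of the same day, and the days overlapped within each cell type.

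**Figure D4:**
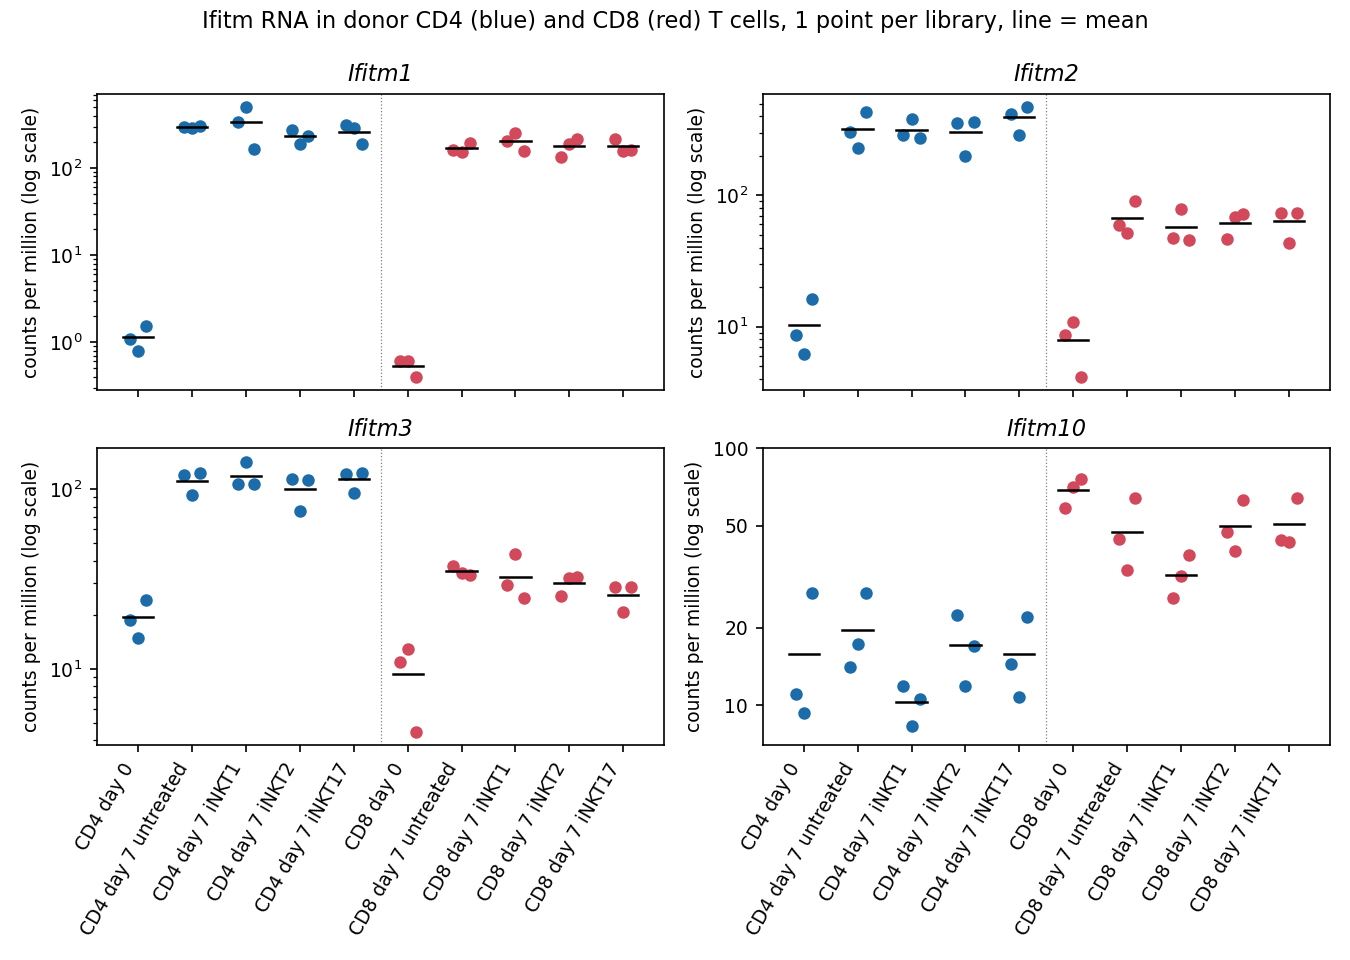
Level of each Ifitm gene in donor CD4 (blue) and CD8 (red) T cells, as CPM on a log axis, at day 0 and in the 4 day 7 groups, with 1 point per library and a line at the mean of 3 libraries. Every day 7 library is above every day 0 library of its cell type for Ifitm1, Ifitm2 and Ifitm3, and the CD8 libraries are above the CD4 libraries of the same group for Ifitm10.

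From day 0 to day 7 without iNKT treatment, the fitted change in CD4 cells was 7.97 ± 0.44 log2 units for Ifitm1, 4.92 ± 0.40 for Ifitm2, 2.48 ± 0.22 for Ifitm3 and 0.26 ± 0.40 for Ifitm10. edgeR called 3 of the 4 members, beside 35.6% of the 15031 genes tested, and the same 3 had libraries that did not overlap between the days, as had 47.2% of genes. In CD8 cells the changes were 8.28 ± 0.30, 3.08 ± 0.37, 1.88 ± 0.31 and -0.56 ± 0.24, and again 3 of 4 members were called, beside 60.7% of 14586 genes, and the same 3 did not overlap, beside 67.1% of genes. DESeq2 called Ifitm10 in CD8 cells as well. With backgrounds this high, and with the members chosen in view of such results, nothing is read from the counts. The step was largest for Ifitm1 and smallest for Ifitm3 among the cluster genes in both cell types.

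Between cell types, Ifitm3 was lower in CD8 than in CD4 cells at day 0 (-1.04 ± 0.27) and Ifitm10 was higher (2.11 ± 0.36), with 2 of 4 members called beside 8.59% of genes and 3 of 4 not overlapping beside 23.2%, while Ifitm1 (-1.08 ± 0.42) and Ifitm2 (-0.38 ± 0.37) were not called. DESeq2 called 3 members at day 0, and edgeR called 0 when other groups were left out of the fit and 1 without CD4 or CD8 day 0 library 3. At day 7 in untreated hosts the difference was -2.25 ± 0.37 for Ifitm2, -1.67 ± 0.27 for Ifitm3 and 1.27 ± 0.35 for Ifitm10, with 3 of 4 called beside 14.5% of genes and 4 of 4 not overlapping beside 34.8%, and -0.79 ± 0.28 for Ifitm1. The change over the 7 days itself was smaller in CD8 cells for Ifitm2, by -1.87 ± 0.52 log2 units, the only one of the 4 called (8.78% of genes were). It was 0.29 ± 0.50 for Ifitm1, -0.63 ± 0.38 for Ifitm3 and -0.84 ± 0.49 for Ifitm10. The Ifitm2 call was lost when any of 5 single libraries was left out: CD8 day 0 library 1 or 2, untreated CD8 day 7 library 1 or 2, or untreated CD4 day 7 library 3. It was also lost without the low-count filter and when other groups were left out of the fit. Over all 16 alternatives its size stayed between -2.34 and -1.58.

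With iNKT cells given, no member passed the test against untreated day 7 cells. With iNKT1 cells, Ifitm1 was 342, 503 and 166 CPM in CD4 cells and 203, 253 and 155 CPM in CD8 cells. With iNKT2 cells it was 273, 190 and 231 CPM in CD4 and 133, 191 and 213 CPM in CD8. With iNKT17 cells it was 310, 286 and 190 CPM in CD4 and 217, 156 and 162 CPM in CD8. The iNKT1-treated CD4 libraries spread from the lowest to the highest value of all 12 CD4 libraries at day 7, and each treated CD8 group overlapped the untreated one. The 3 CD4 libraries with iNKT2 lay below the 3 untreated ones.

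Ifitm2 in CD4 cells was 288, 385 and 272 CPM with iNKT1, 356, 201 and 360 with iNKT2, and 419, 290 and 471 with iNKT17. In CD8 cells all 12 day 7 libraries lay between 43.5 and 91.2 CPM. Ifitm3 lay between 75.9 and 142 CPM over the 12 CD4 libraries and between 20.6 and 43.4 CPM over the 12 CD8 libraries. For Ifitm2 and Ifitm3 no day 7 CD8 library reached any day 7 CD4 library, whatever the treatment. In CD8 cells Ifitm3 was 28.7, 20.6 and 28.4 CPM with iNKT17 and 25.6, 31.9 and 32.4 CPM with iNKT2, below the 3 untreated libraries.

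Ifitm10 was the member with the largest treatment difference. With iNKT1 cells it was 11.9, 8.32 and 10.6 CPM in CD4 cells, below the 3 untreated libraries, and 26.1, 31.8 and 38.6 CPM in CD8 cells, where the groups overlapped. The fitted change was -0.91 ± 0.41 log2 units in CD4 and -0.55 ± 0.24 in CD8 cells. Its levels with iNKT2 and iNKT17 cells overlapped the untreated ones in both cell types.

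Across 6 comparisons of an iNKT treatment with no treatment, edgeR called 0 of 24 pairs of member and comparison, with 2 at an unadjusted p under 0.05 (Ifitm10 with iNKT1 cells, in CD4 and in CD8) and 0 called by DESeq2. The background was 0% of 15031 genes in each CD4 comparison, and 0.158%, 0.110% and 0.206% of 14586 genes in CD8 cells with iNKT1, iNKT2 and iNKT17. The fitted changes of Ifitm1, Ifitm2 and Ifitm3 lay between -0.44 ± 0.29 (Ifitm3, CD8 with iNKT17) and 0.31 ± 0.34 (Ifitm2, CD4 with iNKT17). In 4 of the 24 pairs the treated libraries all lay below the untreated ones (Ifitm1 with iNKT2 and Ifitm10 with iNKT1 in CD4 cells, and Ifitm3 with iNKT2 and iNKT17 in CD8 cells). With iNKT1, iNKT2 and iNKT17 in turn, groups did not overlap for 19.8%, 14.4% and 16.6% of all genes in CD4 cells and for 18.5%, 15.8% and 16.3% in CD8 cells. All 3 treatments are compared with the same untreated libraries.

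**Figure D5:**
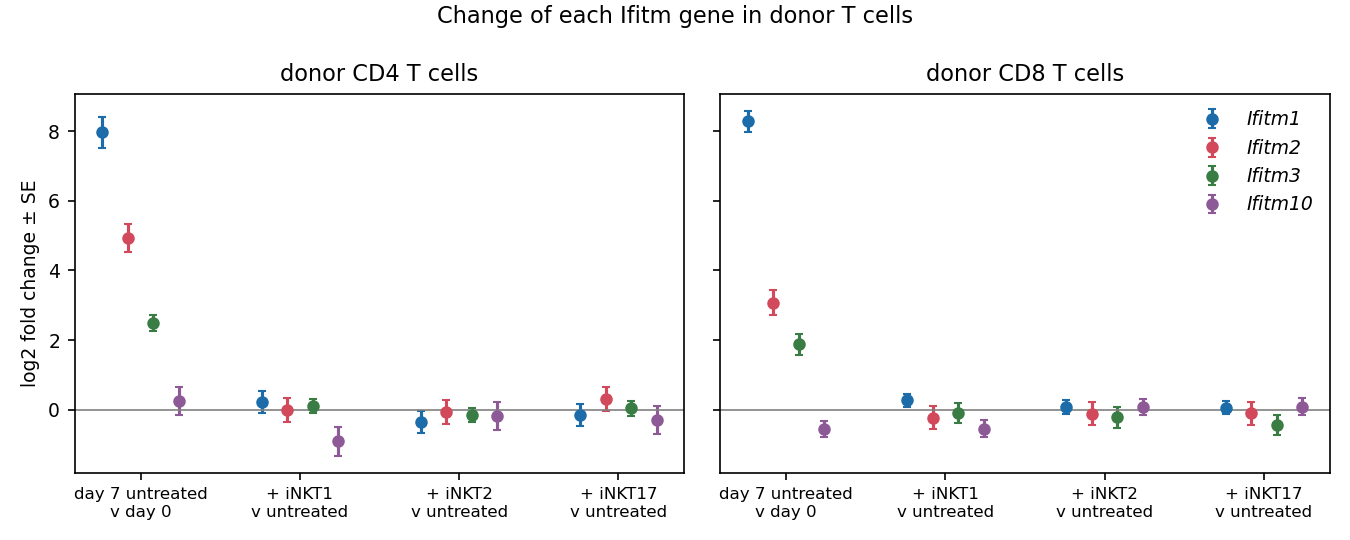
Fitted log2 change of each Ifitm gene (vertical axis), with bars of 1 SE, in donor CD4 (left) and CD8 (right) T cells, for day 7 against day 0 and for each iNKT treatment against untreated day 7. The day 7 changes reach 7.97 and 8.28 for Ifitm1, and the treatment changes lie between -0.91 and 0.31.

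Ordered by mean level, Ifitm1 ran from CD4 cells with iNKT1 (337 ± 168 CPM, SD, n = 3) through the 3 other CD4 groups at day 7 and the 4 CD8 groups at day 7 (down to 170 ± 20.4 when untreated) to CD4 (1.14 ± 0.383) and CD8 (0.534 ± 0.117) at day 0. Neighbouring groups overlapped throughout day 7. Ifitm2 and Ifitm3 each fell into the 4 CD4 groups at day 7 (306 to 393 CPM and 101 to 119 CPM on average), the 4 CD8 groups at day 7 (57.4 to 67.5 and 25.9 to 35.1 CPM) and the 2 day 0 groups. The lowest mean of Ifitm2 was 7.88 ± 3.41 and that of Ifitm3 9.41 ± 4.38 CPM, both in CD8 cells at day 0. For Ifitm3 the CD4 day 0 libraries overlapped the lowest day 7 CD8 group. Ifitm10 ran from CD8 at day 0 (68.5 ± 8.98 CPM) to CD4 with iNKT1 (10.3 ± 1.83), and each neighbour in that order overlapped the next.

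Markers of other cells changed with the day, and their part in these changes was not tested. In CD4 libraries the summed level of 15 myeloid markers was 1107 to 1208 CPM at day 0 and 276 to 299 at day 7, that of 9 B and plasma cell markers 1562 to 2501 against 331 to 419, and that of 9 erythroid and platelet markers 2943 to 8912 against 5.36 to 10.4. In CD8 libraries the same sums were 861 to 2685 against 263 to 549, 1063 to 2052 against 263 to 343, and 568 to 753 against 4.21 to 14.2. All 15 myeloid markers were detected in each of these groups, and 1 B cell and 1 erythroid marker were at 0 in untreated CD8 cells at day 7. These sums fell from day 0 to day 7, the opposite direction to Ifitm1, Ifitm2 and Ifitm3. The sum of 5 natural killer cell markers went the same way as those genes. In CD4 cells it was 25.0 to 31.2 CPM at day 0 and 55.1 to 106 at day 7. In CD8 cells it was 40.6 to 70.7 CPM at day 0 and 88.0 to 234 at day 7. Klra8 was at 0 in CD4 day 0 and untreated CD8 day 7 libraries. Klrb1c and Gzma are in this sum too, so it does not mark natural killer cells alone. Within day 0, CD8 library 3 had the lowest Ifitm2 and Ifitm3 levels of the 3. It also had the lowest myeloid (861 CPM), B cell (1063 CPM) and erythroid (568 CPM) sums. Ifitm10 (76.0 CPM) and the natural killer cell sum (70.7 CPM) were instead highest there. CD4 library 3 had the highest Ifitm2, Ifitm3 and Ifitm10 levels and the highest B cell (2501 CPM) and erythroid (8912 CPM) sums. Its summed level of stromal, endothelial and epithelial markers (172 CPM) was instead the lowest of the 3. T cell defining genes summed to 5513 to 8156 CPM in every donor group.

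Ifitm6, the family member next to Ifitm3, was low in the donor cells and moved the other way in CD4 cells. It averaged 6.13 ± 3.79 CPM in CD4 cells at day 0 and 1.75 ± 0.511 at day 7 untreated, a change of -1.85 ± 0.65 log2 units (edgeR adjusted p = 0.0400), and at day 0 it was lower in CD8 than in CD4 cells by -2.02 ± 0.60 (adjusted p = 0.0345). It too was highest in CD4 day 0 library 3 (10.5 CPM). With iNKT1 and iNKT2 cells it averaged 5.23 ± 2.52 and 5.75 ± 2.79 CPM in CD4 cells, above the untreated libraries without overlap, and neither difference was called. The myeloid sum was also above the untreated 276 to 299 CPM there, at 380 to 990 and 384 to 805 CPM, and its part was not tested. In CD8 cells Ifitm6 was also above the untreated libraries with iNKT2 cells, without overlap, as were or fell 15.8% of all genes. It averaged 4.66 ± 0.301 against 2.40 ± 1.09 CPM, a change of 0.96 ± 0.46 log2 units that was not called. The myeloid sums of those 2 groups overlapped, at 528 to 636 and 263 to 549 CPM. Ifitm5 and Ifitm7 stayed under 0.52 CPM in every donor library.

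The genes whose levels were most like each member over the 30 donor libraries, by Pearson's r of log2 CPM over 9023 genes, are a description, because the libraries form 10 groups and day 0 stands apart from day 7. For Ifitm1 they were Il12rb2, a chain of the interleukin-12 receptor (0.99), Fam188a (0.989) and Batf, an AP-1 family transcription factor (0.988). For Ifitm2 they were Ly6e, an interferon-induced surface protein gene (0.971), Ifitm3 (0.962) and the kinase gene Mapkapk3 (0.962). For Ifitm3 they were Ifitm2 (0.962), BC021614 (0.953) and Podnl1 (0.948). For Ifitm10 they were Shmt2, which encodes a mitochondrial serine hydroxymethyltransferase (0.927), Adgrb2 (0.915) and Pld3 (0.914). Within the 12 CD4 libraries at day 7, r was 0.854 between Ifitm2 and Ifitm3, 0.259 between Ifitm1 and Ifitm2, and 0.493 between Ifitm1 and Ifitm3. Within the 12 CD8 libraries it was 0.627, 0.654 and 0.573. Reads shared between these similar genes could raise such values, and how multimapped reads were counted is not given in the sources used here, so the split between Ifitm1, Ifitm2 and Ifitm3 is uncertain.

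Interferon-pathway genes in the donor cells rose in part with the Ifitm genes. In CD4 cells 13 of 25 interferon-stimulated antiviral genes rose by day 7 and 1 fell (edgeR quasi-likelihood test, Benjamini-Hochberg), with a median of 0.97 log2 units beside -0.08 for all genes. Of all genes tested, 17.4% rose and 18.2% fell in CD4 cells, and 30.9% rose and 29.8% fell in CD8 cells, and the list counts from day 0 to day 7 here and below are to be read beside these shares. Mx1, a dynamin-like antiviral GTPase, rose by 3.25 ± 0.21 (adjusted p = 8.81e-08) and Oas1a, an oligoadenylate synthetase, by 2.70 ± 0.16 (adjusted p = 5.17e-08). In CD8 cells 12 rose and 2 fell, at a median of 0.49 beside -0.05, with Oas1a up by 3.77 ± 0.15 (adjusted p = 3.82e-11) and Mx1 by 2.76 ± 0.15 (adjusted p = 8.86e-10). Both are smaller than the fitted Ifitm1 change in the same cells, and larger than that of Ifitm3 (2.48 in CD4 and 1.88 in CD8 cells). Beside Ifitm2 (4.92 and 3.08) both are smaller in CD4 cells, and in CD8 cells Mx1 is smaller and Oas1a larger.

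Other parts of the pathway were mixed, and where a count lies near the share over all genes (35.6% called in CD4 and 60.7% in CD8 cells, in either direction) nothing is read from it. Of the 14 interferon-gamma-induced GTPases, 6 rose and 1 fell in CD4 cells (median 0.67), with Irgm2 up by 1.52 ± 0.13 and Gbp3 by 1.40 ± 0.12 (adjusted p = 9.01e-07 and 7.90e-07), whereas in CD8 cells 4 rose and 2 fell (median -0.16). At day 7, 6 of the 14 GTPases and 7 of the 25 antiviral genes were lower in CD8 than in CD4 cells and 0 were higher. Of all genes in that comparison, 6.67% were lower and 7.78% higher. At an unadjusted p under 0.05, 1 GTPase and 0 antiviral genes were higher, and DESeq2 called 0 higher. Ifi27l2a, an interferon-induced mitochondrial protein gene, was lower in CD8 than in CD4 cells by -2.01 ± 0.27 (adjusted p = 9.25e-06). Of 15 signalling genes, 5 rose and 1 fell in CD4 cells, and 2 rose and 4 fell in CD8 cells. Socs1 and Socs3 encode inhibitors of JAK and STAT signalling. Their change over the 7 days was lower in CD8 than in CD4 cells, by -1.59 ± 0.30 (adjusted p = 0.00116) and -1.85 ± 0.22 (adjusted p = 5.36e-06). Of all genes in that comparison, 4.29% were called lower and 4.49% higher.

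Of the ligands and receptors, Ifng rose by 3.29 ± 0.34 in CD4 and 2.68 ± 0.25 in CD8 cells (adjusted p = 5.70e-06 and 4.80e-07). Ifngr1 also rose, by 2.30 ± 0.20 and 1.82 ± 0.14. Ifngr2, the signalling chain of that receptor, fell, with changes of -4.16 ± 0.21 and -4.80 ± 0.22 (adjusted p = 1.56e-08 and 1.63e-10). Of 7 enzymes and partners that act on IFITM proteins, 2 rose and 2 fell in CD4 cells and 3 rose and 3 fell in CD8 cells. Zmpste24, the gene of a membrane protease that works with IFITM proteins, rose by 0.58 ± 0.13 and 0.81 ± 0.12. Nedd4, which encodes a ubiquitin ligase that targets IFITM3, fell (-2.18 ± 0.45 and -1.06 ± 0.23), and the tetraspanin gene Cd81 fell (-3.40 ± 0.50 and -4.89 ± 0.34).

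Some genes beside the members on chromosome 7 passed the test as well. Of 9 tested neighbours of the cluster in CD4 cells, 5 rose and 0 fell (median 0.77; 0 fell by DESeq2 and 0 at an unadjusted p under 0.05), and of 8 in CD8 cells 5 rose and 1 fell (median 1.02), where 17.4% and 30.9% of all genes rose. Psmd13, a proteasome subunit gene, rose by 1.03 ± 0.15 and 1.45 ± 0.08, and Rnh1, the gene of a ribonuclease inhibitor, by 1.12 ± 0.16 and 1.34 ± 0.11. Around Ifitm10, Ctsd rose by 1.38 ± 0.14 in CD4 and 1.01 ± 0.13 in CD8 cells, and Lsp1, a leukocyte actin-binding protein gene, by 1.02 ± 0.16 and 1.32 ± 0.09, while Ifitm10 itself was at 0.26 ± 0.40 and -0.56 ± 0.24.

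Under iNKT treatment these lists gave no edgeR call. For the 25 antiviral genes edgeR called 0 in each of the 6 comparisons, with 2 to 5 higher and 0 or 1 lower at an unadjusted p under 0.05 and 0 or 1 called by DESeq2. Of the GTPases with iNKT2 cells, 11 of 14 in CD4 and 12 of 14 in CD8 cells had an unadjusted p under 0.05 in the higher direction, at medians of 0.69 and 0.54, where edgeR called 0 in both and DESeq2 called 1 and 6. Over all genes, 1204 of 15031 and 1872 of 14586 had an unadjusted p under 0.05 in either direction in these comparisons. The Ifitm members in those comparisons lay between -0.35 ± 0.32 (Ifitm1, CD4) and 0.08 ± 0.20 (Ifitm1, CD8).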

How the data were processed

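The deposited tables hold raw counts per gene (RNA) or per open-chromatin region (ATAC), and UMI counts per gene and cell for the single cells. Per the submitters' processing notes the tools included STAR 2.5.4, kallisto, Bowtie2, MACS2 and Cell Ranger 2.1, with builds mm10 and GRCm38; which made each table is not given in the sources used here. Counts of each table were fitted across all features with edgeR 4.0.16 (filterByExpr, TMM, robust quasi-likelihood, Benjamini-Hochberg at 0.05), with R 4.3.3. Alternatives were DESeq2 1.42.0, RLE factors, no filter, only the compared groups, a replicate block for the iNKT tables, and each library left out. The tests were tried on simulated data. Gene symbols came from the single-cell gene list. The region table names no genes, so regions went to the nearest RefSeq start site (GRCm38.p6), a change from the planned assignment. Cells were clustered with scanpy 1.11.5 (Leiden 0.7, set after seeing the cells, 15 components, 1000 genes). The members and lists were chosen with earlier results of these data known. Named list genes are those with the smallest p per list and comparison. Donor libraries are numbered by column order, which only names them. The CD4-positive and CD4-negative iNKT1 libraries were not analysed here.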

Additional observations from a re-analysis of the deposited data

Results flagged for a closer look

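The change of Ifitm2 from day 0 to day 7 differed between donor CD8 and CD4 T cells by -1.87 ± 0.52 log2 units, and an interaction term passed the edgeR quasi-likelihood test after Benjamini-Hochberg adjustment, as it did for 8.78% of genes. The gene was chosen with these results in view, so the call is given as a description. The call was lost without the low-count filter, with other groups left out of the fit, and without any of 5 single libraries (0 of 4 members called in each). The CD4 change was 4.92 ± 0.40 and the CD8 change 3.08 ± 0.37. All 3 untreated CD4 libraries at day 7 (231 to 431 CPM) lay above all 3 CD8 libraries (51.3 to 91.2 CPM), and at day 0 the cell types overlapped.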

How the results depend on the processing

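Counts of called members moved with the processing mainly in the iNKT RNA table, where libraries of a group agreed least. For iNKT2 against iNKT1 (0 called) DESeq2 gave 4, RLE factors 1, no filter 3, only the compared groups 4, and leaving out 1 library 0 to 1. For iNKT17 against iNKT1 (2 called) DESeq2 gave 4 and leaving out 1 library 1 to 4. For iNKT17 against iNKT2 (1 called) only the compared groups gave 0. For CD8 against CD4 at day 0 (2 called) only the compared groups gave 0 and leaving out CD4 or CD8 library 3 gave 1. For the difference in the day 7 change (1 called) no filter and only the compared groups each gave 0, and leaving out 1 library 0 to 2.

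Of the 15 Ifitm regions, iNKT2 against iNKT1 (8 called) gave 5 to 9 with 1 library left out (5 without iNKT1 library 1 or iNKT2 library 2). iNKT17 against iNKT2 (3 called) gave 1 with only the compared groups and 0 to 5 with 1 library left out (0 without iNKT17 library 2, 1 without iNKT2 library 1, 2 without iNKT2 library 2 and 5 without iNKT17 library 1). With 1 library left out, regions that were not called changed sign: Ifitm2 region 4 ran from -0.40 to 0.28 (iNKT17 against iNKT1), and for iNKT17 against iNKT2 Ifitm5 region 1 ran from -0.0056 to 0.099, Ifitm5 region 2 from -0.42 to 0.091, Ifitm2 region 1 from -0.64 to 1.48, Ifitm1 region 2 from -1.32 to 0.11, Ifitm3 region 1 from -0.20 to 0.41, Ifitm6 region 1 from -1.47 to 0.52 and Ifitm10 region 2 from -0.28 to 0.10.

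With a replicate block, 0, 1 and 1 members were called in iNKT2 against iNKT1, iNKT17 against iNKT1 and iNKT17 against iNKT2, and 11, 13 and 4 regions. Same-numbered libraries had deviations that correlated at -0.13 to 0.061 in RNA and 0.44 to 0.60 in ATAC. What a shared number marks is not given in the labels. The block made calls of Ifitm2 region 1 (both comparisons with iNKT1), Ifitm3 region 1 (iNKT17 against iNKT1) and Ifitm10 region 4 (iNKT17 against iNKT2), given above with their values. For Ifitm5 region 1 (both comparisons with iNKT1) and Ifitm6 region 1 (iNKT2 against iNKT1) the block also gave a call. No block could be fitted for donor cells, whose columns carry no experiment.

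Over all genes, DESeq2 called 1034, 1638 and 1260 where edgeR called 159, 247 and 88 (iNKT2 against iNKT1, iNKT17 against iNKT1, iNKT17 against iNKT2), and 135, 117 and 222 where edgeR called 0 in CD4 cells with iNKT1, iNKT2 and iNKT17. In CD8 cells it called 370, 332 and 445 against 23, 16 and 30, and only the compared groups gave 3, 2 and 6. With only the compared groups the CD8 against CD4 count at day 0 fell from 1340 to 452 and that of the day 7 change from 1370 to 626. The block raised the region count of iNKT17 against iNKT2 from 4549 to 10102. Thinned cells gave 9.63% with Ifitm2 and 14.8% with Ifitm10 in thymus A (17.4% and 27.5% unthinned) and 7.91% with Ifitm10 in thymus B (18.6%). The cause of these shifts was not tested.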
